A study of Mus musculus with 121 samples.

Results

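The 8 heat shock chaperone genes were followed across 6 mouse tumours given gamma rays or carbon ions. The members are Hspa1a, Hsph1, Hspa8, Dnajb1, Hsp90aa1, Hspd1, Hspe1 and Hspb1, taken by gene symbol from the array annotation, with the brightest probe that had a value on at least 90% of arrays standing for each gene. By this rule 7 of the 8 were measured, out of 12962 genes tested on 81 gamma and 40 carbon arrays. Each of the 7 had 1 probe with a single gene symbol. Hspa8, the constitutive cytosolic HSP70, was not measured, since its only probe with a single symbol had values on 86.0% of arrays, while the 7 had them on 99.2% or more. Heat shock chaperones bind unfolded or newly made proteins and keep them from aggregating. HSP70 proteins work in cycles of ATP hydrolysis that J-domain proteins start and HSP110 proteins reset, and HSP90 takes over later clients such as kinases and steroid receptors. Many of these genes are switched on by heat shock factor 1 (HSF1) when misfolded proteins build up, and tumours often keep their levels high.

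Total RNA of tumours carried in the hind legs of male C3H/HeMs mice, each leg given 1 local dose, was hybridised in 1 colour to CodeLink arrays (the series' design text describes this for gamma rays alone). The first tumour is a radiation-induced fibrosarcoma, called the induced fibrosarcoma here, and nfsa is a spontaneous one, mmca and mca4 are spontaneous mammary carcinomas, and scc7 and nrs1 are spontaneous tumours labelled SCC, a usual short form of squamous cell carcinoma. The gamma experiment has 81 arrays: 0, 30, 50 and 70 Gy on day 1 in the induced fibrosarcoma, nfsa, mmca and mca4, unirradiated mmca on day 9, and 30 or 50 Gy on later days up to day 41 in all 6 tumours. The carbon experiment has 40 arrays: unirradiated mmca and mca4 at 0 h, 30 Gy at 6 h and on days 1, 3, 5 and 20 in the same pair of tumours, and 30 Gy on day 5 and day 20 (day 42 in scc7) in the other 4. Neither scc7 nor nrs1 has unirradiated arrays, and the induced fibrosarcoma and nfsa have none in the carbon experiment. A group of tumour, beam, dose and time holds 2 or 3 arrays, and the labels do not say whether these are separate animals, so every p value rests on array-to-array spread that could be purely technical. Levels are log2 of the deposited intensity (a difference of 1 is a change by a factor of 2), differences carry the standard error (SE) of a limma model over all arrays, and a gene is called higher or lower at a Benjamini-Hochberg adjusted p under 0.05.

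The promoters of the members are shown first because HSF1 binds inverted repeats of the unit nGAAn, and the windows differ in how many repeats they hold. The motifs searched were GAANNTTC and TTCNNGAA, each its own reverse complement, in the 250 bases before each start site of the RefSeq promoter table (GRCm38.p6), and 6 members have a window there. Of all 32851 windows of this length, 6.69% hold GAANNTTC, 7.17% hold TTCNNGAA and 12.8% hold at least 1 of them. Capitals mark the motifs. On that build the members lie at chr17:34969359-34972156 (Hspa1a), chr5:149616843-149636498 (Hsph1), chr5:135887919-135889563 (Hspb1), chr12:110691036-110696395 (Hsp90aa1), chr8:83608175-83612653 (Dnajb1), chr1:55077833-55088243 (Hspd1) and chr1:55088148-55091317 (Hspe1), and each window ends at the base before a transcript start.
Hspa1a (chr17:34972157-34972406, minus strand): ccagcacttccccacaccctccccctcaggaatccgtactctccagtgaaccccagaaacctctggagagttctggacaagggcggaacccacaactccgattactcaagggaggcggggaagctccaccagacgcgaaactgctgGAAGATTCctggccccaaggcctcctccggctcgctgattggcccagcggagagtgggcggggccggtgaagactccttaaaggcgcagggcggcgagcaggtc
Hsph1 (chr5:149636337-149636586, minus strand): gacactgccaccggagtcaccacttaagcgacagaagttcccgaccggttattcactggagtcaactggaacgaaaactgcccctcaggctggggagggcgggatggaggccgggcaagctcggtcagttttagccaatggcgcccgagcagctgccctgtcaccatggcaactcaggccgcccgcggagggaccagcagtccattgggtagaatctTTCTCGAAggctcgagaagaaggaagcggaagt
Hspb1 (chr5:135887669-135887918, plus strand): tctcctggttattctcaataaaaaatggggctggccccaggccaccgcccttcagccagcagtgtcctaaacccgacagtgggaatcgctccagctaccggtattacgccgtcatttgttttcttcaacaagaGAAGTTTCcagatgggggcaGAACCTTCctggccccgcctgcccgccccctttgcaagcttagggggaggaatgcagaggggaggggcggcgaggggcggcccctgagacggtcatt
Hspe1 and Hspd1 (chr1:55088053-55088082, plus strand): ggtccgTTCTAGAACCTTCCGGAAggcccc

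The Hspa1a window has 1 GAANNTTC, ending 96 bases before the start, and the window of its near-identical neighbour Hspa1b differs from it in 3 bases. Hsph1 has 1 TTCNNGAA in the window shown, 25 bases before the start, and Hspb1 has 2 copies of GAANNTTC. Hspd1 and Hspe1 stand head to head on chromosome 1, with 215 bases between the Hspe1 start (55088148) and an Hspd1 start (55087932), and share a run of 4 alternating units. The stretch shown for this pair is cut to 30 bases around that run of 18 bases, which lies 71 bases from the Hspe1 start and 126 from the Hspd1 start. Such a run holds GAANNTTC followed by NNGAA, or TTCNNGAA followed by NNTTC, as 0.466% of windows do. Another Hspd1 start (55088243) lies inside the Hspe1 span, and its window holds neither motif. Neither window of Dnajb1 holds these letters, which says nothing on whether HSF1 acts on the gene. Hspa8 and Hsp90aa1 have no window in the table.

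Gamma arrays lacked values for 9.99 to 18.6% of probes and carbon arrays for 0.541 to 4.92%, so the experiments are described apart. The labelled tumour types were checked against markers. The summed linear intensity of the 2 epithelial markers with values on every array was 119.8 or more in mmca, mca4 and nrs1 and at most 1.39 in scc7, as low as in the fibrosarcomas. The sum of 2 squamous markers was 399 to 757 in nrs1 and 17.8 to 23.4 in scc7, against at most 25.3 in the fibrosarcomas. For these 2 genes scc7 was thus not above the fibrosarcomas. Other tested squamous markers lacked values on some arrays and were left out of the sum. Muscle of the leg was present to unequal degree, with sums of 10 skeletal muscle genes from 16.0 to 2024 over all arrays. In such bulk samples fewer cells of a type and less RNA per cell cannot be told apart.

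After 30 Gy of carbon ions the chaperone genes fell together in the 2 mammary carcinomas with an unirradiated group, mmca and mca4. In the mean of both, 3 of the 7 members were lower than at 0 h after 6 h, 5 on day 1, 6 on day 3, 6 on day 5 and 7 on day 20, and none was higher. Of all genes tested, 4.48% were lower at 6 h, 3.83% on day 1, 25.6% on day 3, 38.5% on day 5 and 43.7% on day 20. The median member differed by -0.32, -0.51, -0.56, -0.91 and -0.91 log2 at these times, and the median gene by -0.038, -0.014, -0.083, -0.12 and -0.14. In this fit the members' share was above the share of all genes at 6 h and on day 1, when most of the array had not moved. The late falls stood among many others. With 1 value per group in place of 1 per array, 1 member was called at 6 h and 2 on day 1. Leaving out 1 array gave 1 to 3 at 6 h and 3 to 5 on day 1. The members were chosen with earlier results of these data known, so their share is a description only. With missing values at the floor and quantile normalization, Hsp90aa1 was called on none of days 1, 3, 5 and 20 (adjusted p from 0.423 on day 20 to 0.864 on day 1), and the Hsph1 calls at 6 h and on day 3 were lost (0.0804 and 0.151). The Hsp90aa1 difference on day 1 was -0.50 in that fit, against -0.39. Hsp90aa1 had values on 80 of 81 gamma arrays and Hsph1 on 39 of 40 carbon arrays. That setting puts each missing value at the floor, and all arrays share 1 estimate of the spread. The part of this in the lost calls was not tested. No unirradiated carbon array is later than 0 h, so time in the leg and irradiation cannot be told apart here.

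Hspa1a, which encodes the stress-inducible HSP70, had the largest mean fall of the 7 from day 1 on. The Hspa1a levels in mca4 were 5.47 and 5.71 at 0 h, 5.11 and 4.95 at 6 h, 3.21 and 3.36 on day 1, 2.20 and 2.30 on day 3, 2.04 and 1.98 on day 5 and 2.23 and 2.27 on day 20. The Hspa1a levels in mmca were 4.20 and 4.36 at 0 h, 4.19 and 4.21 at 6 h, 2.99 and 3.08 on day 1, 2.73 and 2.82 on day 3, 2.35 and 2.45 on day 5 and 2.45 and 2.30 on day 20. In both tumours the 6 h arrays lay near or a little under the 0 h arrays, and every array from day 1 on lay under both 0 h arrays of its tumour. The mean difference was -0.32 at 6 h, -1.78 on day 1, -2.43 on day 3, -2.73 on day 5 and -2.62 on day 20, and all but the first were called in the fit over both beams (-1.78 ± 0.32 with adjusted p = 5.69e-05 on day 1, -2.73 ± 0.32 with adjusted p = 1.38e-11 on day 5). On day 5 this is a 6.64-fold fall in the mean, and in mca4 alone the difference was -3.58 ± 0.45 (SE, adjusted p = 7.17e-10). In mmca the day 5 difference was -1.88 ± 0.45 (SE, adjusted p = 0.000318). The mca4 level started higher, and the difference between the tumours in the change over days 1 to 5 (mmca minus mca4) was 1.53 ± 0.52 with an adjusted p of 0.18, which did not pass. In a fit on carbon arrays alone the same difference had an adjusted p of 1.04e-10 and was called, as was the 6 h fall of Hspa1a (0.00225). In the fit over both beams no member passed the test between tumours, for which 0.572% of genes did. With 1 value per group in place of 1 per array, the day 1 fall of Hspa1a had an adjusted p of 0.0594.

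The probe for Hspa1b, another stress-inducible HSP70 gene nearly identical to Hspa1a, gave smaller differences. Its mean difference was -0.72 ± 0.18 on day 1 (adjusted p = 0.00546), -0.35 on day 3 (adjusted p = 0.11), -0.49 on day 5 (adjusted p = 0.0138) and -0.49 on day 20 (adjusted p = 0.0119). In mca4 the day 20 difference was -0.94 ± 0.25 (SE, adjusted p = 0.00105), while the mean mmca level was 6.21 at 0 h and 6.16 on day 20. Without mmca unirradiated array 2 the calls on days 1, 5 and 20 were lost (-0.61, -0.39 and -0.39). Quantile normalization also ended the calls on days 1, 5 and 20 (adjusted p = 0.0595, 0.0984 and 0.101), and the day 3 value was called on carbon arrays alone (0.00042). How far each probe also binds transcripts of the other copy is not given in the sources used here.

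The partners of HSP70 fell on different schedules. Hsph1 encodes the HSP110 that resets HSP70 by exchanging its nucleotide, and its fall was already present at 6 h. The Hsph1 levels in mmca were 2.37 and 2.64 at 0 h, 1.81 and 1.70 at 6 h, 1.45 and 1.29 on day 1, 1.99 and 2.04 on day 3, 1.54 and 1.58 on day 5 and 1.69 and 1.39 on day 20. The Hsph1 levels in mca4 were 2.0 and 2.09 at 0 h, 1.13 and 1.41 at 6 h, 1.01 and 1.04 on day 1, 1.39 and 1.45 on day 3, 1.42 and 0.91 on day 5 and 1.10 and 1.35 on day 20. All irradiated arrays lay under the unirradiated arrays of their tumour, and the mean of both tumours was lowest on day 1 and partly back up on day 3. The mean difference was -0.77 at 6 h, -1.08 on day 1, -0.56 on day 3, -0.91 on day 5 and -0.89 on day 20, each called (adjusted p = 0.000593 at 6 h, 2.66e-06 on day 1 and 0.00387 on day 3). Dnajb1 encodes the J-domain protein that hands substrates to HSP70 in the stress response. Its mean differences were -0.31 at 6 h, -0.038 on day 1, -0.54 on day 3, -0.69 on day 5 and -0.72 on day 20, called at all these times except day 1 (adjusted p = 0.868). The small 6 h fall of Dnajb1 (adjusted p = 0.0221) lost its call without any 1 of 4 arrays: mca4 unirradiated hour 0 array 1 (-0.29), mca4 30 Gy hour 6 array 2 (-0.25), mmca unirradiated hour 0 array 2 (-0.29) or mmca 30 Gy hour 6 array 1 (-0.30). From day 3 on every irradiated Dnajb1 array lay under the unirradiated arrays of its tumour.

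Hsp90aa1 encodes the inducible cytosolic HSP90. It had mean differences of -0.14 at 6 h, -0.39 on day 1, -0.38 on day 3, -0.70 on day 5 and -0.91 on day 20, called from day 1 on (adjusted p = 0.0179 on day 1 and 3.42e-11 on day 20). The mmca arrays read 7.18 and 7.49 at 0 h and 6.31 and 6.23 on day 20, and the mca4 arrays 7.05 and 7.14 and 6.36 and 6.31. The day 1 call was lost without any 1 of 5 arrays: mca4 unirradiated hour 0 array 2 (-0.36), mca4 30 Gy day 1 array 1 (-0.35), mmca unirradiated hour 0 array 2 (-0.31), mmca 30 Gy day 1 array 1 (-0.38) or mmca 30 Gy day 1 array 2 (-0.39).

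The mitochondrial chaperonin pair had the most regular course. Hspd1 encodes HSP60, which forms the folding chamber of mitochondria, and Hspe1 encodes HSP10, the lid of that chamber. The Hspd1 levels in mmca were 7.42 and 7.41 at 0 h, 6.92 and 7.0 at 6 h, 6.64 and 6.78 on day 1, 6.38 and 6.44 on day 3, 5.97 and 6.12 on day 5 and 5.71 and 5.58 on day 20. The Hspd1 levels in mca4 were 7.09 and 7.15 at 0 h, 6.72 and 6.49 at 6 h, 6.62 and 6.53 on day 1, 6.26 and 6.40 on day 3, 6.04 and 6.09 on day 5 and 5.80 and 5.53 on day 20. No irradiated array reached the unirradiated arrays of its tumour, and the levels stepped down from day 1 to day 3, day 5 and day 20 in both tumours. The mean Hspd1 difference was -0.48 at 6 h, -0.62 on day 1, -0.90 on day 3, -1.21 on day 5 and -1.61 on day 20, each called (adjusted p = 1.66e-18 on day 20, a 3.06-fold fall). The 6 h call of Hspd1 (adjusted p = 0.00784) was lost without mca4 30 Gy hour 6 array 2 (-0.43). For Hspe1 the mean difference was -0.32 at 6 h, -0.51 on day 1, -0.71 on day 3, -1.28 on day 5 and -1.60 on day 20, called from day 1 on. The mmca arrays of Hspe1 read 5.16 and 4.81 at 0 h and 3.52 and 3.15 on day 20, and the mca4 arrays 4.74 and 4.81 and 2.94 and 3.51. Its day 1 call (adjusted p = 0.0201) was lost without any 1 of 4 arrays: mca4 unirradiated hour 0 array 2 (-0.49), mca4 30 Gy day 1 array 1 (-0.49), mmca unirradiated hour 0 array 1 (-0.42) or mmca 30 Gy day 1 array 2 (-0.41).

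Hspb1 encodes HSP27, a small heat shock protein that binds unfolded clients without ATP and is abundant in muscle and squamous epithelium. Its mean difference was -0.15 at 6 h, -0.51 on day 1, -0.40 on day 3, -0.26 on day 5 and -0.51 on day 20, and in the fit over both beams the day 20 value alone was called (-0.51 ± 0.18, adjusted p = 0.00822). In a fit on carbon arrays alone Hspb1 was called on day 1 (adjusted p = 5.56e-06), day 3 (4.31e-05) and day 5 (0.0041) too, with the same differences. The day 3 value was also called with 1 value per group (adjusted p = 0.0391) and after quantile normalization (0.0452). With 1 value per group the 6 h calls of Hspd1 and Dnajb1 (adjusted p = 0.0511 and 0.0759) and the day 1 calls of Hspe1 and Hsp90aa1 (0.0952 and 0.0997) were lost. The mca4 arrays read 7.44 and 7.43 at 0 h and 6.82 and 6.64 on day 20, and the mmca arrays 6.75 and 6.80 and 6.41 and 6.50.

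**Figure D1:**
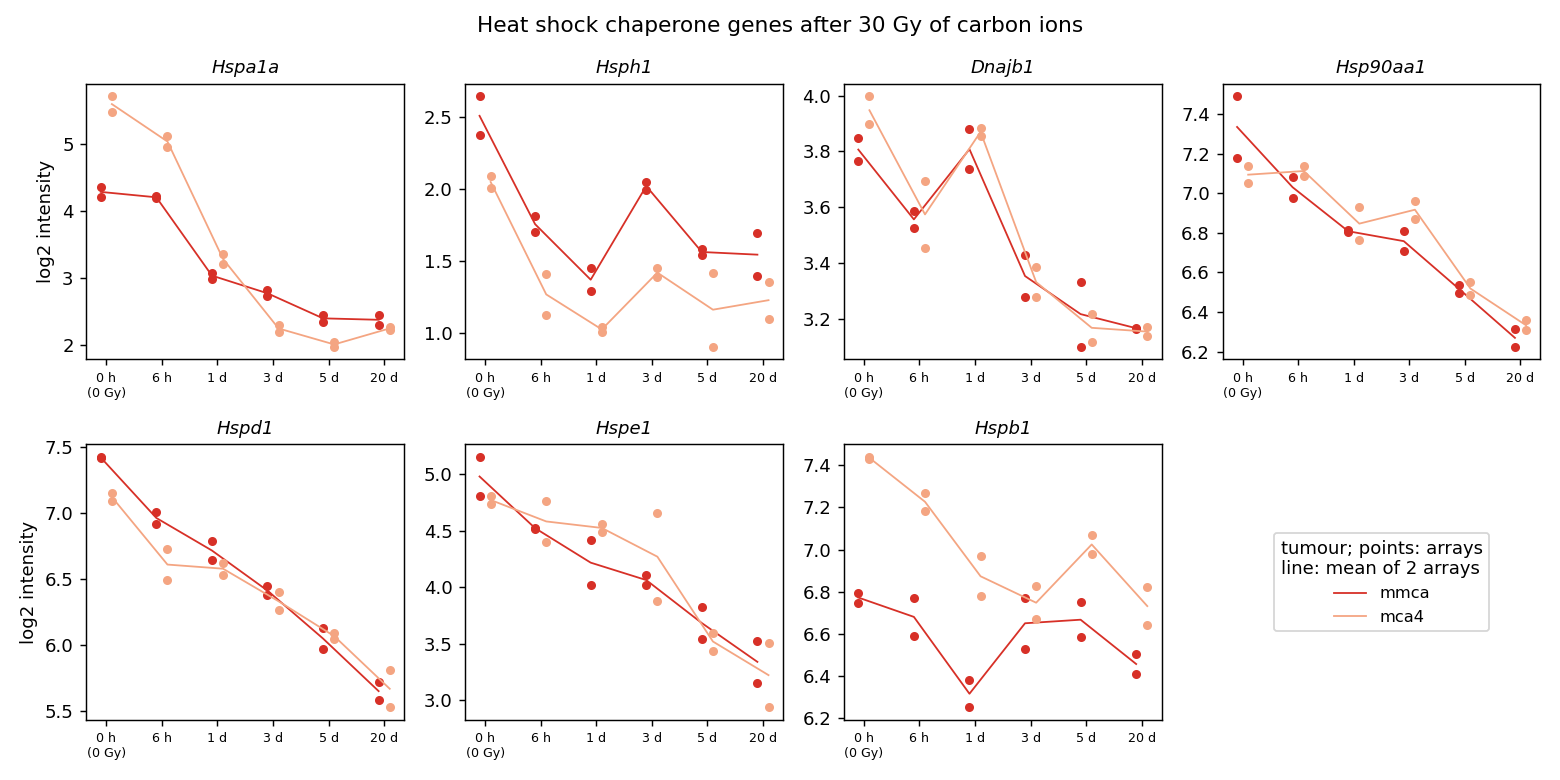
Log2 intensity (vertical axis) of the 7 measured chaperone genes in the mammary carcinomas mmca and mca4 at 0 h without irradiation and from 6 h to 20 days after 30 Gy of carbon ions (horizontal axis, not to scale), with 1 point per array and lines through the means of 2 arrays. Hspa1a drops between 6 h and day 1 in both tumours, Hspd1 and Hspe1 decline step by step, and Hspb1 overlaps its 0 h level at some times in mmca.

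Other genes of the chaperone network moved over the same times, list by list. Of 9 measured HSP90 partners, 4 fell and 1 rose at 6 h, and 8 fell and 1 rose on days 3, 5 and 20, with a median of -0.76 on day 20. The immunophilin gene Fkbp4, whose protein links HSP90 to steroid receptors, fell by 0.45 at 6 h, by 0.49 on day 1 and by 1.39 on day 20, the 6 h and day 1 values without a call when 1 value per group was used (adjusted p = 0.117 and 0.107). The related genes Ppid and Fkbp5 fell by 1.22 and 1.07 on day 20. Of 12 measured genes of the cytosolic chaperonin TRiC and of prefoldin, which fold actin and tubulin, 1 fell at 6 h and 2 on day 1, then 9 on day 3, 10 on day 5 and 10 on day 20, and none rose at these times. Among its subunits Cct6a fell by 1.27, Tcp1 by 1.15 and Cct7 by 1.09 on day 20. Of 9 mitochondrial chaperones, 7 fell on day 20, led by the import motor gene Timm44 (-1.01), the mitochondrial HSP90 gene Trap1 (-0.86) and the mitochondrial HSP70 gene Hspa9 (-0.78), and the nucleotide exchange factor gene Grpel2 rose by 0.47. Among 13 HSP70 and HSP110 relatives and cofactors the signs were mixed on day 20, with 8 lower (Bag2 -1.14, St13 -0.81) and 4 higher (Hspa12a 1.37). Of 8 other small heat shock proteins 3 rose on day 20 and none fell, where 27.3% of all genes rose: Cryab (alpha B-crystallin) by 2.18, Hspb2 by 1.65 and Hspb3 by 1.33, all known from striated muscle. Chaperones of the endoplasmic reticulum had an early fall, 7 of 16 at 6 h (Sdf2l1 -0.76, Pdia4 -0.61), none on day 1, and 9 falls with 2 rises on day 20.

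Markers of the tumour's make-up moved over the same days. All 11 measured proliferation genes fell on days 3, 5 and 20 (6 of them at 6 h and 2 on day 1), and the sum of the 8 with values on every array was 368 to 379 at 0 h and 108 to 114 on day 20 in mmca, and 308 to 319 and 111 to 118 in mca4. All 11 macrophage markers rose on days 3, 5 and 20, when 17.3%, 22.1% and 27.3% of all genes rose, and on day 1 none was called (sum of 5 genes 41.8 to 46.7 at 0 h, 40.1 to 42.2 on day 1 and 179.9 to 182 on day 20 in mmca). In mca4 that macrophage sum was 33.6 to 36.8 at 0 h, 41.3 to 44.8 on day 1 and 209.8 to 268 on day 20. Of 25 muscle genes 23 rose on day 20, none rose at the earlier times, and their sum over 10 genes was 114 to 123 and 409 to 421 in mmca and 89.1 to 92.5 and 589 to 652 in mca4 at 0 h and on day 20. The part of these shifts in the late falls of the chaperone genes was not tested. On day 1 the proliferation sums were 289 to 303 in mmca, under its 0 h sums, and 311 to 334 in mca4, overlapping its 0 h sums. Their part in the day 1 fall of Hspa1a was not tested either.

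Between day 5 and day 20 after carbon ions the members moved apart by tumour. In the mean of the induced fibrosarcoma, nfsa, nrs1, mmca and mca4, 37.8% of genes differed and 2 of 7 members did, Hsp90aa1 higher by 0.19 and Hspb1 lower (-0.27). The Hspb1 call was lost in 17 of the fits that left out 1 array, with values between -0.29 and -0.25, and with array number as a replicate block (adjusted p = 0.0591). The Hsp90aa1 call was lost without induced fibrosarcoma 30 Gy day 20 array 2 (0.16) or nrs1 30 Gy day 20 array 2 (0.18). After quantile normalization neither was called: Hsp90aa1 was 0.061 (adjusted p = 0.521) and Hspb1 -0.29 (0.057). In nfsa Hspa1a rose from 3.44 and 3.39 to 5.22 and 5.30, a difference of 1.84 ± 0.45 (SE, adjusted p = 0.00137), where 19.9% of genes were called. Hspa1b rose there by 0.93 ± 0.25 (SE, adjusted p = 0.00437), a call that was lost without nfsa 30 Gy day 20 array 1 (0.84) and after quantile normalization (adjusted p = 0.07). In nrs1 the Hspa1a arrays read 5.84 and 5.69 on day 5 and 4.46 and 4.28 on day 20 (-1.39 ± 0.45 SE, adjusted p = 0.0111, among 35.7% of genes). That call was lost without nrs1 30 Gy day 20 array 2 (-1.30) or nrs1 30 Gy day 5 array 1 (-1.31). The difference between these changes, nfsa minus nrs1, was 3.23 ± 0.63 (SE) for Hspa1a and 0.69 ± 0.19 for Dnajb1. This pair of tumours was picked after its values were seen, so these differences are given without a test, and 17.1% of all genes were past the threshold in it. In the induced fibrosarcoma (44.9% of genes called) Hsp90aa1 rose by 0.79 ± 0.16 (SE, adjusted p = 2.49e-05) and Hspd1 by 0.66, while Hspb1 fell by 0.83. The rise of Hspa1a there (1.10) was lost without induced fibrosarcoma 30 Gy day 20 array 1 (1.28), induced fibrosarcoma 30 Gy day 20 array 2 (0.92), induced fibrosarcoma 30 Gy day 5 array 1 (0.96) or induced fibrosarcoma 30 Gy day 5 array 2 (1.24), after quantile normalization (adjusted p = 0.0848) and with the replicate block (0.056). Hspa1b was not called in the induced fibrosarcoma (0.30, adjusted p = 0.347) or in nrs1 (-0.51, adjusted p = 0.108). In nfsa the rises of Hsp90aa1 (0.45) and Dnajb1 (0.44) were called. The first was lost without nfsa 30 Gy day 20 array 1 (0.44), nfsa 30 Gy day 20 array 2 (0.47), nfsa 30 Gy day 5 array 1 (0.45) or nfsa 30 Gy day 5 array 2 (0.45). After quantile normalization it was 0.14 (adjusted p = 0.585). The Dnajb1 call was lost without nfsa 30 Gy day 20 array 2 (0.36), nfsa 30 Gy day 5 array 1 (0.43) or nfsa 30 Gy day 5 array 2 (0.45). In nrs1 the rise of Hspd1 (0.47) was lost without nrs1 30 Gy day 20 array 1 (0.18), nrs1 30 Gy day 5 array 1 (0.47) or nrs1 30 Gy day 5 array 2 (0.48). The rise of Hspe1 there (0.62) was lost without nrs1 30 Gy day 20 array 2 (0.54) or nrs1 30 Gy day 5 array 2 (0.43). Quantile normalization gave 0.28 for Hspd1 (adjusted p = 0.243) and 0.45 for Hspe1 (0.116), neither called. In scc7, sampled on day 42 in place of day 20, Hspb1 fell by 1.07 from 5.97 and 6.29 to 5.08 and 5.04, where 32.5% of genes were called. In mmca and mca4 none of the 7 was called in this step, where 8.43% and 15.5% of genes were.

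On day 1 after gamma rays the chaperone genes did not move as a group. In the mean of the induced fibrosarcoma, nfsa, mmca and mca4 (24 irradiated and 8 unirradiated arrays) 3 of 7 members were lower and 1 was higher, a share near that of all genes, of which 59.4% were called, 34.7% lower and 24.8% higher. The chaperonin partners moved in opposite directions: Hspd1 fell by 0.75 ± 0.074 (SE, adjusted p = 4.95e-14) and Hspe1 rose by 0.53 ± 0.085 (adjusted p = 1.71e-07). Hspa1a fell by 0.60 ± 0.18 (adjusted p = 0.00343) and Dnajb1 by 0.27 ± 0.054 (adjusted p = 1.84e-05). Hsph1 (-0.056), Hspb1 (-0.11) and Hsp90aa1 (0.095) did not pass, and the Hspb1 value turned positive under 3 other settings. After quantile normalization Hsp90aa1 was 0.24 and called (adjusted p = 0.000337). With 1 value per group none of the 7 was called (adjusted p = 0.096 for Hspa1a, 0.0931 for Hspe1 and 0.203 for Hspd1).

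The Hspd1 arrays show how uneven this day was. The Hspd1 levels in the induced fibrosarcoma were 5.52 and 5.38 at 0 Gy, 3.94 and 4.09 at 30 Gy, 3.27 and 3.61 at 50 Gy and 5.17 and 4.98 at 70 Gy. The Hspd1 levels in mmca were 6.87 and 6.87 at 0 Gy, 4.78 and 4.74 at 30 Gy, 6.63 and 6.54 at 50 Gy and 6.78 and 6.64 at 70 Gy. In both tumours the 30 Gy arrays stood far below the unirradiated ones and the 70 Gy arrays close to them, and the 50 Gy arrays were the lowest in the induced fibrosarcoma and near the unirradiated level in mmca. The Hspd1 levels in nfsa were 5.39 and 6.20 at 0 Gy, 4.25 and 4.58 at 30 Gy, 5.93 and 5.63 at 50 Gy and 5.18 and 5.02 at 70 Gy. The Hspd1 levels in mca4 were 5.39 and 5.84 at 0 Gy, 5.96 and 6.10 at 30 Gy, 4.77 and 4.68 at 50 Gy and 5.51 and 5.51 at 70 Gy. In nfsa the unirradiated arrays lay apart from each other and the 30 and 70 Gy arrays were below both, and in mca4 only the 50 Gy arrays were. By tumour Hspd1 was lower in the induced fibrosarcoma (-1.27 ± 0.15 SE, adjusted p = 3.9e-11), mmca (-0.85 ± 0.15 SE, adjusted p = 6.24e-06) and nfsa (-0.70 ± 0.15 SE, adjusted p = 0.00022), the last without its call when nfsa unirradiated array 2 was left out (-0.29). The share of genes called was 50.9% in the induced fibrosarcoma, 33.1% in mmca, 29% in nfsa and 42.8% in mca4, where no member was called.

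Array quality ran alongside the dose. All 70 Gy arrays and the 50 Gy arrays of mmca and nfsa, 12 arrays in all, lacked 10.1 to 11.4% of probes, and the other 12 irradiated day 1 arrays lacked 12.2 to 15.3%. Hspd1 differed from the unirradiated mean of its tumour by a median of -0.23 on the first 12 arrays and -1.43 on the others, and Hsph1 by 0.70 and -0.80. Hspe1 gave 0.64 and 0.62, nearly the same on both sets, and Hspa1a -0.60 and -0.44. Of the day 1 arrays 13 lacked under 12%, these 12 and nfsa unirradiated array 1 (10.1%), the lower of its pair for Hspd1 and Hsph1. Without these 13 arrays, which leaves nfsa the higher unirradiated array alone, Hsph1 was -0.82 (adjusted p = 1.26e-08), Hspd1 -1.46 (adjusted p = 1.21e-22), Hspe1 0.64 (adjusted p = 4.46e-07) and Hspa1a -0.38, no longer called (adjusted p = 0.151). The part of array quality in these values was not tested, and 70 Gy and a low share of missing probes cannot be told apart.

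The mean over tumours was also taken at each dose. At 30 Gy (63.1% of genes called) Hspd1 was lower by 1.13, Hsph1 by 0.44 and Dnajb1 by 0.38, and Hspe1 was higher by 0.83 and Hsp90aa1 by 0.24. At 50 Gy (43.6%) Hspa1a was lower by 0.87, Hspd1 by 0.80, Hsph1 by 0.44 and Dnajb1 by 0.21. At 70 Gy (61%) Hsph1 was higher by 0.71 and Hspe1 by 0.70, and Hspd1, Hspb1 and Dnajb1 were lower by 0.33, 0.33 and 0.21. Hsph1 therefore lay on opposite sides of its unirradiated level at 30 and 70 Gy, and the 70 minus 30 Gy difference was 1.16 ± 0.12 (SE, adjusted p = 2.19e-13), with 50.2% of genes called. In that comparison Hspd1 differed by 0.79 ± 0.091 (SE, adjusted p = 2.35e-11), Hspb1 by -0.39 ± 0.12 and Dnajb1 by 0.17 ± 0.066. The sign of Hspb1, here and at 70 Gy, reversed after quantile normalization (0.12 for 70 minus 30 Gy). At 70 Gy that normalization gave -0.0041 for Hspd1 (adjusted p = 0.97) and -0.056 for Dnajb1 (0.445), and at 30 Gy 0.14 for Hsp90aa1 (0.0878), none of them called. With missing values at the floor as well, the Hsph1 falls at 30 and 50 Gy were not called (adjusted p = 0.0531 and 0.0799). The 70 minus 30 Gy call of Dnajb1 was lost on gamma arrays alone (adjusted p = 0.0627) and without induced fibrosarcoma 30 Gy day 1 array 2 (0.15), mca4 30 Gy day 1 array 2 (0.15), mca4 70 Gy day 1 array 2 (0.16), mmca 30 Gy day 1 array 2 (0.15), mmca 70 Gy day 1 array 1 (0.15), nfsa 30 Gy day 1 array 1 (0.12) or nfsa 70 Gy day 1 array 1 (0.16).

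Hsph1 is given array by array for this day, on which dose and the share of missing probes ran together. The Hsph1 levels in the induced fibrosarcoma were 0.59 and 0.41 at 0 Gy, 0.28 and 0.36 at 30 Gy, -0.60 and -0.66 at 50 Gy and 1.58 and 1.37 at 70 Gy. The Hsph1 levels in mmca were 0.64 and 0.34 at 0 Gy, -0.15 and -0.34 at 30 Gy, 1.07 and 1.22 at 50 Gy and 1.72 and 1.68 at 70 Gy. The Hsph1 levels in mca4 were -0.45 and 0.22 at 0 Gy, 0.23 and 0.32 at 30 Gy, -1.16 and -0.89 at 50 Gy and 0.62 and 0.56 at 70 Gy. In all 3 tumours the 70 Gy arrays were above every other array of that day, and in the induced fibrosarcoma and mca4 the 50 Gy arrays were below every other. These 50 Gy arrays lacked 12% of probes or more. The 50 Gy arrays of mmca lacked under 12% and were above the unirradiated ones. In nfsa the unirradiated arrays read 0.90 and 1.64, further apart than any irradiated pair there, and the 30 Gy arrays were the lowest (0.12 and -0.071). The nfsa mean fell by 0.55 (adjusted p = 0.0205), a call that was lost without nfsa unirradiated array 2 (-0.18) and with missing values at the floor and quantile normalization (adjusted p = 0.258).

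By tumour the fall of Hspa1a on day 1 was called in mmca alone, and the difference between tumours in this fall was not tested beyond the comparison of tumour types. The Hspa1a levels in mmca were 3.60 and 3.53 at 0 Gy, 3.18 and 2.96 at 30 Gy, 1.64 and 1.98 at 50 Gy and 2.17 and 2.0 at 70 Gy. All 6 irradiated arrays were below both unirradiated ones, and the difference was -1.24 ± 0.37 (SE, adjusted p = 0.00613). It was no longer called without mmca unirradiated day 1 array 1 (-1.21) or mmca unirradiated day 1 array 2 (-1.27). Without the 50 and 70 Gy arrays, all with under 12% of probes missing, the mmca value was -0.50 and not called (adjusted p = 0.415). The Hspa1a levels in the induced fibrosarcoma were 3.69 and 3.87 at 0 Gy, 3.67 and 3.59 at 30 Gy, 3.50 and 3.58 at 50 Gy and 4.00 and 4.05 at 70 Gy. The Hspa1a levels in mca4 were 2.74 and 2.25 at 0 Gy, 1.61 and 1.53 at 30 Gy, 1.94 and 1.98 at 50 Gy and 2.19 and 2.24 at 70 Gy. In the induced fibrosarcoma the 70 Gy arrays were above the unirradiated ones and the others slightly below, and in mca4 all irradiated arrays were below both unirradiated arrays, 1 of them only just. In unirradiated mmca Hspa1a itself differed with the day, 3.60 and 3.53 on day 1 and 2.35 and 2.18 on day 9 (-1.30 ± 0.45 SE, adjusted p = 0.0291, where 21.2% of genes were called). Hspe1 rose over the same days by 0.80 (adjusted p = 0.00342). The Hspa1a call was lost without any 1 of the 4 arrays (-1.38 to -1.22). It was lost on gamma arrays alone (adjusted p = 0.0825) and after quantile normalization (0.0686). The Hspe1 call was lost without mmca unirradiated day 1 array 2 (0.45) or mmca unirradiated day 9 array 1 (0.61). The day 9 arrays lacked 9.99 and 10.4% of probes and the day 1 arrays 13.7 and 14.3%, so day and the share of missing probes cannot be told apart.

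Dnajb1 in nfsa and Hspe1 in the induced fibrosarcoma had irradiated arrays wholly apart from the unirradiated ones. In nfsa Dnajb1 read 4.06 and 4.15 without irradiation, and 2.96 and 3.32 at 30 Gy, 3.52 and 3.45 at 50 Gy and 3.32 and 3.27 at 70 Gy, so no irradiated array reached the unirradiated ones (-0.80 ± 0.11 SE, adjusted p = 4.25e-08). The Hspe1 levels in the induced fibrosarcoma were 2.95 and 2.66 at 0 Gy, 4.04 and 3.92 at 30 Gy, 3.31 and 3.10 at 50 Gy and 3.58 and 3.72 at 70 Gy. In the induced fibrosarcoma every irradiated Hspe1 array was above both unirradiated ones (0.81 ± 0.17 SE, adjusted p = 5.6e-05), and in mmca Hspe1 rose by 0.64 (adjusted p = 0.0023). That call was lost without mmca unirradiated array 2 (0.30). The tested difference in the day 1 change between fibrosarcomas and mammary carcinomas (21.9% of genes called) was -0.43 ± 0.11 for Dnajb1 (adjusted p = 0.00215), -0.55 ± 0.19 for Hsph1, -0.46 ± 0.15 for Hspd1 and -0.42 ± 0.13 for Hsp90aa1. All 4 were more negative in the mean of both fibrosarcomas. Each type is a pair of tumours, so the SE measures spread between arrays and not between tumours of a type. By tumour, the Hspd1 fall was larger in mmca than in nfsa. Dnajb1 was called lower in nfsa but not in the induced fibrosarcoma. For the difference between types, the Hsp90aa1 call was lost without mca4 unirradiated day 1 array 2 (-0.36). The Hsph1 call was lost without induced fibrosarcoma unirradiated day 1 array 1 (-0.51), mca4 unirradiated day 1 array 1 (-0.39), mmca unirradiated day 1 array 2 (-0.48) or nfsa unirradiated day 1 array 2 (-0.37). The Hspd1 call was lost without induced fibrosarcoma unirradiated day 1 array 1 (-0.43), mca4 unirradiated day 1 array 1 (-0.35) or nfsa unirradiated day 1 array 2 (-0.26). Without the 13 arrays under 12% the Hsph1 and Hsp90aa1 calls were lost (adjusted p = 0.0542 and 0.088), as was that of Hsph1 on gamma arrays alone (0.0598).

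**Figure D2:**
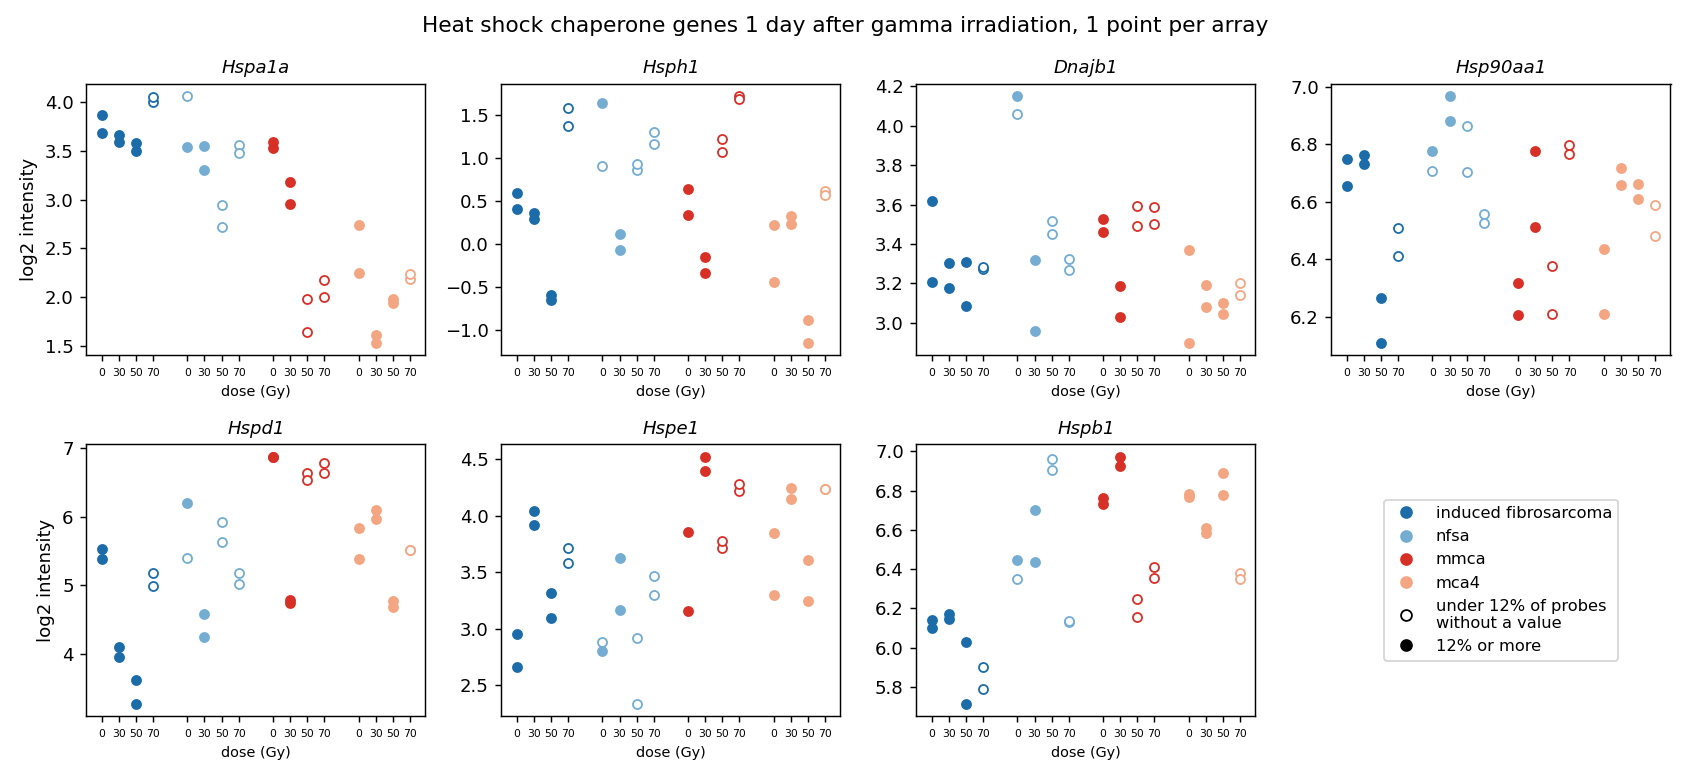
Log2 intensity (vertical axis) of the 7 chaperone genes on day 1 in 4 tumours at 0, 30, 50 and 70 Gy of gamma rays (horizontal axis), with 1 point per array and open points for arrays with under 12% of probes missing. The Hsph1 points at 70 Gy, all open, lie above every 30 and 50 Gy point of the same tumour, and the Hspe1 points at 30 and 70 Gy lie above the unirradiated points in all 4 tumours.

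The network around the members was as mixed on that day. Of 9 HSP90 partners 6 fell and none rose (Ptges3, the p23 co-chaperone, -0.45, and Fkbp4 -0.42), and of 9 mitochondrial chaperones 6 fell and none rose (Hspa9 -0.25). Of 7 cytosolic J-domain genes 4 rose and none fell (Dnajb6 0.22), and of 12 TRiC and prefoldin genes 3 rose and 4 fell (Cct6a -0.35). Among 16 chaperones of the endoplasmic reticulum 5 rose and 5 fell (Canx, which encodes calnexin, -0.64). Cryab rose by 0.65, beside 5 rises and no fall among 22 muscle genes. With 1 value per group none of the genes named here was called. Macrophage markers rose in 7 of 11 cases (1 fell) and proliferation genes in 5 of 11 (4 fell).

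On days 8 to 25 after gamma rays Hsph1 was the member with the clearest change. In the mean of 4 tumours (27 irradiated arrays) it was higher by 0.83 ± 0.093 (SE, adjusted p = 1.63e-12), a 1.78-fold rise, and it was the one member still called with 1 value per group (adjusted p = 0.0114). Hspb1 was lower by 0.46 ± 0.10 (adjusted p = 4.2e-05). Hspd1 (0.21 ± 0.074), Hspe1 (0.19 ± 0.084) and Hsp90aa1 (0.15 ± 0.063) were higher by small amounts, and Hspa1a (-0.20) and Dnajb1 (-0.046) did not pass. With mmca set against its day 1 unirradiated arrays Hspa1a was -0.53 and called (adjusted p = 0.00708). The 5 of 7 called members stand against 73.6% of all genes, 34% higher and 39.6% lower, so their share was no greater than that of the array. The Hspd1 call was lost without mca4 unirradiated day 1 array 1 (0.16) or nfsa unirradiated day 1 array 1 (0.11). The Hsp90aa1 call was lost without induced fibrosarcoma unirradiated day 1 array 1 (0.14), mca4 unirradiated day 1 array 2 (0.12), mmca unirradiated day 9 array 2 (0.15) or nfsa unirradiated day 1 array 1 (0.14). The Hspe1 call was lost without induced fibrosarcoma unirradiated day 1 array 2 (0.16), mca4 unirradiated day 1 array 1 (0.12), mca4 50 Gy day 25 array 1 (0.17), mmca unirradiated day 9 array 2 (0.15), nfsa unirradiated day 1 array 2 (0.18) or nfsa 30 Gy day 9 array 3 (0.18). It was lost after quantile normalization too (adjusted p = 0.0538), as was that of Hsp90aa1 on gamma arrays alone (0.0514). Late mmca was set against its day 9 unirradiated arrays, and the other 3 tumours against day 1. For these 3, and for mmca at 50 Gy on day 19, time and irradiation cannot be told apart. The day 9 unirradiated mmca arrays lacked 9.99 and 10.4% of probes and the late irradiated mmca arrays 13.8 to 14.2%, so in mmca irradiation and the share of missing probes cannot be told apart either. In nfsa the unirradiated arrays lacked 10.1 and 12.5% and the day 9 arrays 13.8 to 18.6%.

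The Hsph1 rise was called in 3 tumours. In the induced fibrosarcoma the unirradiated arrays read 0.59 and 0.41, and the irradiated ones 1.98, 1.68 and 1.95 at 30 Gy on day 8, 1.06, 1.58 and 2.41 at 30 Gy on day 16, 1.89, 1.83 and 1.99 at 50 Gy on day 22. In mca4 they read -0.45 and 0.22 without irradiation, 1.24, 1.45 and 1.22 at 30 Gy on day 11, 1.02, 1.16 and 1.25 at 50 Gy on day 25. All irradiated arrays of both tumours were above all unirradiated ones, by 1.32 ± 0.18 (SE, adjusted p = 1.86e-09) in the induced fibrosarcoma and 1.34 ± 0.19 (SE, adjusted p = 4.85e-09) in mca4. In mmca the rise was 0.77 ± 0.19 (SE, adjusted p = 0.000594), not called with missing values at the floor and quantile normalization (0.0765), and in nfsa Hsph1 was -0.091 (adjusted p = 0.7). The share of genes called was 67.7% in the induced fibrosarcoma, 63.7% in mca4, 42.4% in mmca and 57.5% in nfsa. The difference between the changes in the induced fibrosarcoma and nfsa was 1.41 ± 0.26 (SE). This pair, and the pair of mmca and mca4, were picked after the values were seen, so differences between their late changes are given without a test. Of all genes 54.6% were past the threshold for the first pair and 49.1% for the other.

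Hspd1 moved in opposite directions in different tumours. In the induced fibrosarcoma it read 5.52 and 5.38 without irradiation and 6.55, 6.13 and 6.46 at 30 Gy on day 8, 6.45, 6.36 and 6.99 at 30 Gy on day 16, 6.49, 6.42 and 6.74 at 50 Gy on day 22. In mmca it read 7.15 and 7.04 in unirradiated tumours of day 9 and 6.67, 6.84 and 6.87 at 30 Gy on day 9, 6.13, 6.21 and 6.21 at 50 Gy on day 19. The irradiated arrays of the induced fibrosarcoma were all above their unirradiated level and the mmca arrays all below theirs. The change was 1.06 ± 0.14 (SE, adjusted p = 9.98e-10) in the induced fibrosarcoma, 1.12 ± 0.15 (SE, adjusted p = 8.54e-10) in mca4, -0.61 ± 0.15 (SE, adjusted p = 0.000597) in mmca and -0.72 ± 0.15 (SE, adjusted p = 2.66e-05) in nfsa. With missing values at the floor and quantile normalization the mmca value was -0.30 and not called (adjusted p = 0.0877). In mmca at 30 Gy on day 9, the group matched in day to its unirradiated arrays, Hspd1 was not called lower. Without nfsa unirradiated array 2 the nfsa value was -0.32 and not called. The changes differed by 1.79 ± 0.21 (SE) between the induced fibrosarcoma and nfsa and by -1.73 ± 0.21 between mmca and mca4. For Hspe1 the changes in mmca and mca4 differed by -0.81 ± 0.24 (SE). Its mmca fall of 0.54 (adjusted p = 0.00814) was lost without mmca unirradiated day 9 array 1 (-0.35) and became 0.26, not called, against the day 1 unirradiated arrays. Proliferation sums were 284 to 323 without irradiation in the induced fibrosarcoma and 408 to 453 on day 8, against 260.4 to 294 in unirradiated mmca and 164 to 189.8 at 50 Gy on day 19, and their part in the Hspd1 values was not tested.

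Dnajb1 split the fibrosarcomas in the same way as Hspd1, rising in the induced fibrosarcoma (0.67 ± 0.10 SE, adjusted p = 5.21e-08) and falling in nfsa (-0.82 ± 0.11 SE, adjusted p = 1.46e-09), changes that differed by 1.49 ± 0.15 (SE). In nfsa it read 4.06 and 4.15 without irradiation and 3.53, 3.37 and 3.50 at 30 Gy on day 9, 3.08, 3.19 and 3.05 at 50 Gy on day 9, with no overlap. The nfsa fall was there on day 4 (-0.99 ± 0.11 SE, adjusted p = 2.87e-12, 58.6% of genes called), when Hspb1 was lower by 1.00 and Hspd1 by 0.76. Without nfsa unirradiated array 2 the day 4 Hspd1 value was -0.35 and not called. Hspb1 stayed lower in nfsa on day 9 (-0.83 ± 0.20 SE, adjusted p = 0.000352) and was lower in the induced fibrosarcoma (-0.61 ± 0.19 SE, adjusted p = 0.00489). The latter was no longer called without induced fibrosarcoma unirradiated day 1 array 1 (-0.58) or after quantile normalization (adjusted p = 0.0634). Hsp90aa1 was higher in the induced fibrosarcoma by 0.33 ± 0.12 (adjusted p = 0.0149). That call was lost without induced fibrosarcoma unirradiated day 1 array 1 (0.28). Hspe1 rose in the induced fibrosarcoma by 0.70 ± 0.16 (SE, adjusted p = 0.000138).

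Hspa1a moved in single late groups without a shared direction. In the induced fibrosarcoma at 50 Gy on day 22 the arrays read 4.65, 5.87 and 5.11 against 3.69 and 3.87 without irradiation, a rise of 1.43 ± 0.41 (SE, adjusted p = 0.00168) where 65.2% of genes were called. In mca4 at 30 Gy on day 11 they read 1.22, 1.08 and 1.5 against 2.74 and 2.25, a fall of 1.23 ± 0.41 (adjusted p = 0.00752, 60.8% of genes). It was no longer called without mca4 unirradiated day 1 array 1 (-0.98). In mmca at 50 Gy on day 19 they read 1.16, 1.29 and 1.52 against 2.35 and 2.18 on day 9 (-0.94 ± 0.41 SE, adjusted p = 0.0477, 50.5% of genes). That call was lost on gamma arrays alone (adjusted p = 0.102), with the replicate block (0.0522) and without mmca unirradiated day 9 array 1 (-0.86), mmca unirradiated day 9 array 2 (-1.03), mmca 50 Gy day 19 array 1 (-0.86) or mmca 50 Gy day 19 array 2 (-0.93). In none of these 3 groups did irradiated and unirradiated arrays overlap. Hspa1b was called higher in that group of the induced fibrosarcoma (0.74, adjusted p = 0.00391). It was not called in the mca4 group (-0.30, adjusted p = 0.253) or the mmca group (-0.065, adjusted p = 0.836). The 3 arrays of the induced fibrosarcoma on day 22 differed widely in muscle content, with sums of 10 muscle genes from 137 to 1159, and the neutrophil sum of 2 genes was 176 to 219 there against 20.8 to 26.2 without irradiation. Their part in the Hspa1a rise was not tested. Between 25 and 41 days after 50 Gy in mca4, 33.2% of genes differed and Hspe1 rose by 0.53 ± 0.19 (SE, adjusted p = 0.0249). It was no longer called after quantile normalization (adjusted p = 0.0551), with the replicate block (0.0729) or without mca4 50 Gy day 25 array 2 (0.53), mca4 50 Gy day 25 array 3 (0.37), mca4 50 Gy day 41 array 1 (0.51) or mca4 50 Gy day 41 array 2 (0.56).

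**Figure D3:**
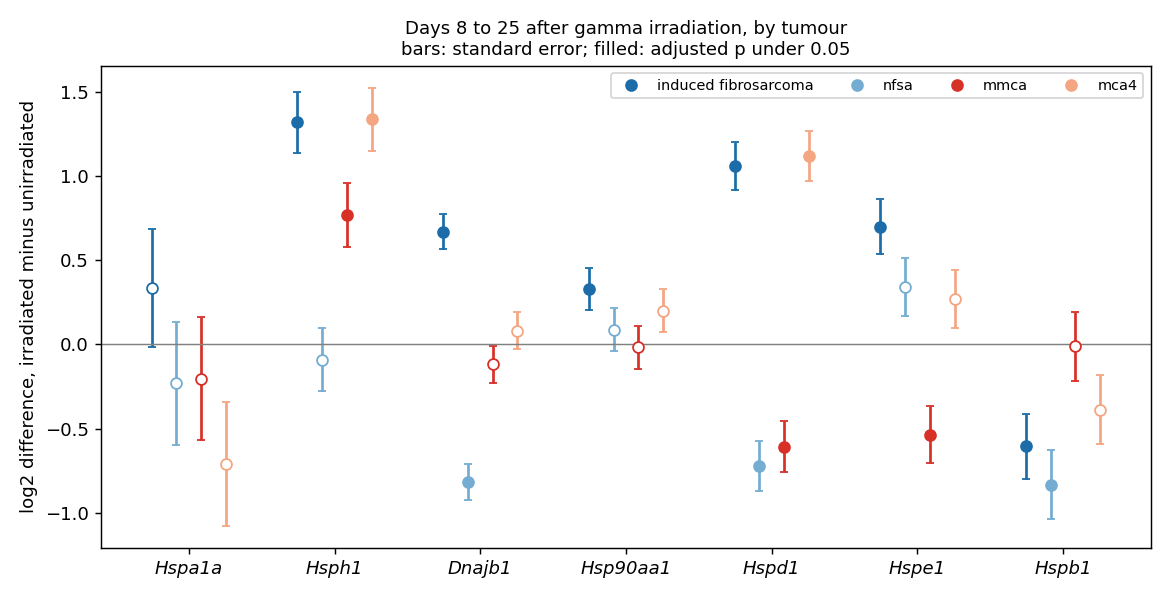
Log2 difference (vertical axis) between irradiated and unirradiated arrays on days 8 to 25 after gamma rays for each of the 7 chaperone genes (horizontal axis) in 4 tumours, with bars of 1 standard error and filled points at an adjusted p under 0.05. Hsph1 is above 0 in the induced fibrosarcoma, mmca and mca4, and Hspd1 lies at 1.06 and 1.12 in the induced fibrosarcoma and mca4 but below 0 in nfsa and mmca.

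In the network, late gamma groups again had falls and rises side by side. Of 9 HSP90 partners 5 fell and 3 rose (Fkbp4 -0.57, Ptges3 0.42), of 13 HSP70 and HSP110 relatives 6 rose and 4 fell (Hspa2 0.80, and Hspbp1, an HSP70 nucleotide exchange factor gene, -0.77), and of 12 TRiC and prefoldin genes 5 rose and 2 fell (Cct8 0.46, Cct2 0.41). Of 9 mitochondrial chaperones 5 rose and 4 fell, with Trap1 at 0.78 and Hspa9 at 0.43. Of 7 J-domain genes 6 rose and none fell (Dnajb6 0.57), and of 7 small heat shock proteins 3 fell and none rose (Hspb6 -0.71). Of 6 measured regulators of heat shock factors 1 rose and 2 fell, and among them the heat shock factor gene Hsf4 fell by 0.87. Hsf1 was not analysed here. Macrophage markers rose in 10 of 11 cases and T and NK cell markers in 9 of 9, and muscle genes rose in 2 and fell in 1 of 25. With 1 value per group Trap1, Hspa9, Ptges3, Cct2, Cct8 and Hspb6 were not called (adjusted p from 0.11 for Trap1 to 0.349 for Cct2).

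Before irradiation all 7 measured members were called between the fibrosarcomas and the mammary carcinomas, Hspa1a with the largest adjusted p. Fibrosarcomas minus mammary carcinomas, over 8 arrays, was 0.70 ± 0.16 (SE, adjusted p = 0.000126) for Hsph1, 0.44 ± 0.094 for Dnajb1 and 0.43 ± 0.11 for Hsp90aa1. Hspd1 was lower in the fibrosarcomas by 0.62, Hspe1 by 0.72 and Hspb1 by 0.50. Of all genes 67.4% were called in this comparison. Each type is a pair of tumours, so the SE measures spread between arrays and not between tumours of a type. The unirradiated Hspd1 arrays of nfsa and mca4 overlapped, as did the Hsph1 arrays of the induced fibrosarcoma and mmca. Hspa1a was higher in the fibrosarcomas by 0.76 ± 0.32 (SE, adjusted p = 0.0292). That call was lost on gamma arrays alone (adjusted p = 0.0678), after quantile normalization (0.0527), with array number as a block (0.0847) and without induced fibrosarcoma unirradiated day 1 array 2 (0.72), mca4 unirradiated day 1 array 2 (0.64), mmca unirradiated day 1 array 1 (0.78), mmca unirradiated day 1 array 2 (0.75) or nfsa unirradiated day 1 array 1 (0.63). With missing values at the floor and quantile normalization the Hsp90aa1 call was lost (0.772). In that fit the gamma array without an Hsp90aa1 value stands at the floor. Hspa1b was lower in the fibrosarcomas (-0.63 ± 0.18 SE, adjusted p = 0.00152). The mmca arrays of Hspd1 stood highest at 6.87 and 6.87, and those of Hspb1 in the induced fibrosarcoma lowest at 6.14 and 6.10. Beside these differences, 11 of 11 macrophage and 10 of 10 stromal markers were higher and 4 of 4 epithelial markers lower in the fibrosarcomas, and their part was not tested.

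Among the 6 irradiated tumours nrs1 stood apart for 3 members in both experiments. It was singled out after the values of all 6 had been seen, so its differences from the mean of the others are given without a test. On day 5 after carbon ions Hspb1 read 8.57 and 8.67 in nrs1, 7.07 and 6.98 in mca4, 6.58 and 6.75 in mmca, 5.97 and 6.29 in scc7, 5.84 and 5.71 in the induced fibrosarcoma and 5.64 and 5.63 in nfsa. The nrs1 arrays were above all others by 2.38 ± 0.19 (SE) on average, a 5.20-fold difference, and the arrays of nrs1, mca4, mmca, scc7, the induced fibrosarcoma and nfsa did not overlap in this order; mean differences between neighbours below nrs1 were not tested. Hspa1a read 5.84 and 5.69 in nrs1 and between 1.98 and 3.98 in the other 5 (a difference of 2.90 ± 0.35). Dnajb1 read 5.25 and 5.22 in nrs1 (a difference of 1.78 ± 0.10). In the gamma experiment at 30 Gy, days 8 to 11, the nrs1 arrays read 8.33, 7.71 and 8.18 for Hspb1, 4.85, 5.12 and 5.10 for Hspa1a and 5.34, 4.97 and 5.05 for Dnajb1, again above every array of the other 5 tumours. The differences were 2.13 ± 0.16, 2.16 ± 0.29 and 1.53 ± 0.085 (SE). Hspa1b was higher too, by 1.89 ± 0.20 after carbon ions and 0.93 ± 0.16 after gamma rays. Of all genes 66.6% differed between nrs1 and the rest on carbon day 5 and 63.7% in the gamma groups. Hsp90aa1 was higher by 0.57 and Hspd1 lower by 0.54 in nrs1 on carbon day 5. The squamous marker sum that sets nrs1 apart was 615 to 649 in these carbon arrays, against 72.0 to 84.7 in mca4, the next highest, and its part in the levels was not tested. With no unirradiated nrs1 arrays, tumour and response to irradiation cannot be told apart.

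At the other end, mca4 had the lowest Hspa1a of the 6 tumours in both settings, 2.04 and 1.98 on carbon day 5 and 1.22, 1.08 and 1.5 at 30 Gy of gamma rays on day 11. Within scc7 and nrs1, both labelled SCC, later or higher-dose gamma groups differed in few members. In scc7 at 50 Gy Hspa1a read 3.50 and 1.04 on day 23 and 3.03 and 6.00 on day 35, so the arrays overlapped although the difference was called (2.25 ± 0.45 SE, adjusted p = 0.00148, 1.13% of genes). The call was lost without scc7 50 Gy day 23 array 2 (1.02) or scc7 50 Gy day 35 array 2 (0.76). In nrs1 Hspe1 was lower at 50 Gy on day 15 than at 30 Gy on day 8 by 0.76 (adjusted p = 0.00162), where 12.8% of genes were called, and in scc7 no member differed between 50 Gy on day 23 and 30 Gy on day 8 (2.25% of genes).

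**Figure D4:**
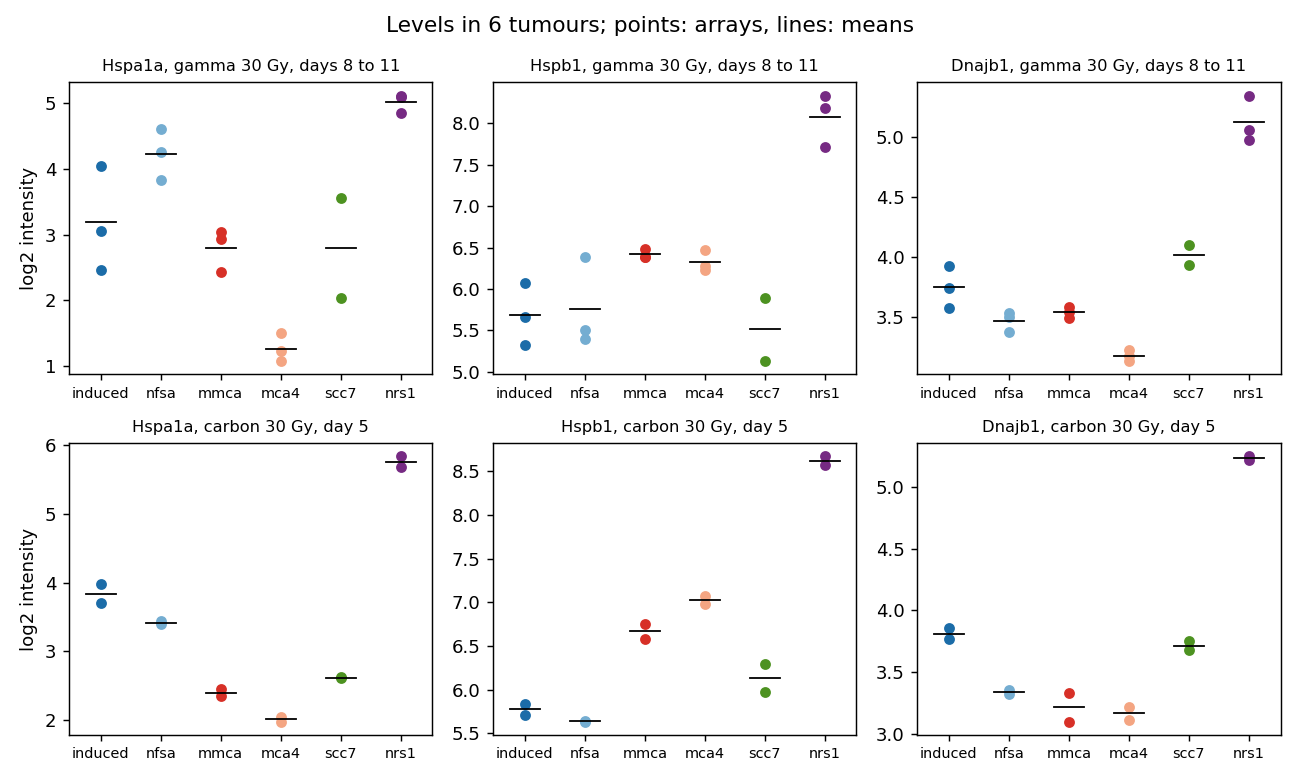
Log2 intensity (vertical axes) of Hspa1a, Hspb1 and Dnajb1 in the 6 tumours at 30 Gy, on days 8 to 11 after gamma rays (upper panels) and on day 5 after carbon ions (lower panels), with points for arrays and lines for means (the induced fibrosarcoma is marked induced). The nrs1 arrays lie above all others in each of the 6 panels.

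How closely the members followed each other differed between the experiments, which hold unlike groups. The carbon groups are 6 in mmca, 6 in mca4 and 2 in each other tumour, while the gamma groups span several doses. Beam and choice of groups cannot be told apart here. After subtracting the mean of each tumour, the 21 pairs of members had a median Pearson r of 0.082 over the 34 gamma group means (from -0.48 to 0.81, 3 pairs over 0.5) and of 0.57 over the 20 carbon group means (from 0.033 to 0.94, 11 pairs over 0.5). These are descriptions without a test, since the groups share array processing and the unirradiated groups of their tumour. Hspd1 and Hspe1, with the repeat shown above between the Hspe1 start and an Hspd1 start, had r = 0.94 on carbon arrays and -0.078 on gamma arrays. On gamma arrays the pair Hspd1 and Hsph1 had the highest value, 0.81, followed by Hspd1 and Dnajb1 at 0.74, and Hspb1 and Hsph1 had the lowest, -0.48. On carbon arrays Hsp90aa1 followed Hspd1 at 0.91 and Hspe1 at 0.87.

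**Figure D5:**
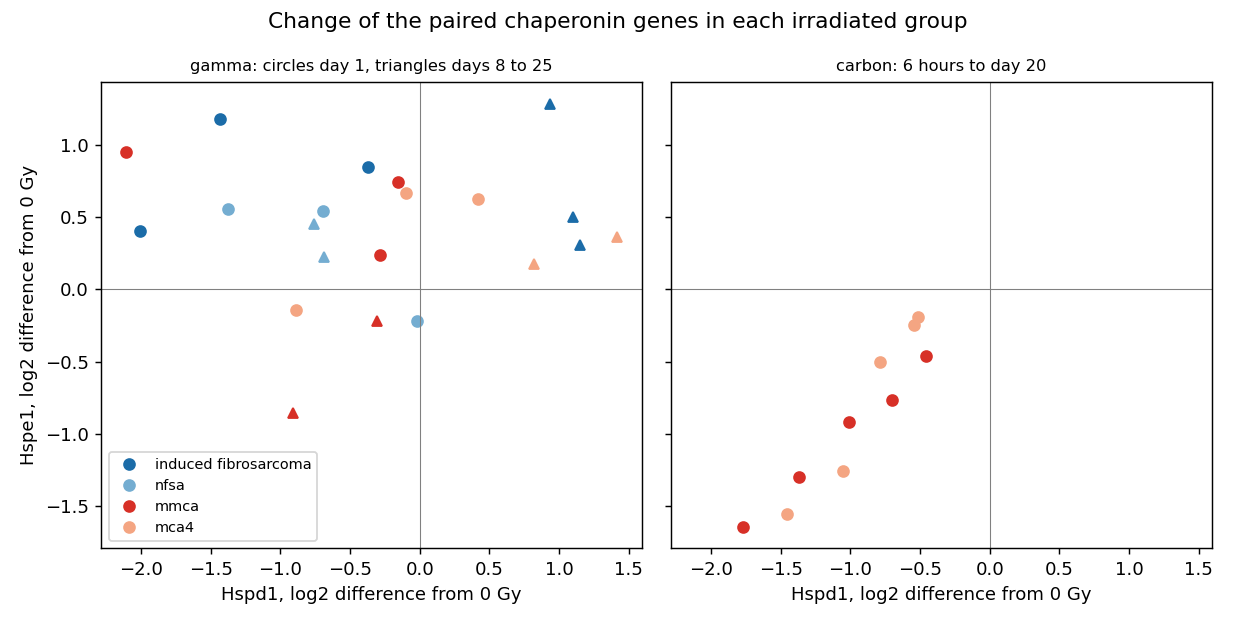
Log2 difference from 0 Gy of Hspe1 (vertical axis) against that of Hspd1 (horizontal axis), with 1 point per irradiated group, for gamma rays (left, circles day 1, triangles days 8 to 25) and carbon ions (right, 6 h to day 20); groups of a tumour share their unirradiated arrays. The carbon groups lie along a rising line below 0 for both genes, while many gamma day 1 groups have Hspd1 below 0 and Hspe1 above 0.

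Outside the members, the genes whose gamma profiles were most like that of Hspa1a were Hspa1b (0.80), Eno2 (0.75), Cyth1 (0.73), Radil (0.72), Ero1a (0.71), given as r over 34 groups among 12757 genes. On carbon arrays the most similar to Hspa1a were Il12rb2 (0.88), Trpa1 (0.88), Arid2 (0.88), Cir1 (0.86), Gm15555 (0.86), over 20 groups among 12888 genes, and Hspa1b had 0.78. For the mean of the members they were Cstf2 (0.90), Stip1 (0.90), Smarcb1 (0.89), Mcm2 (0.87), Xrcc6 (0.86) on gamma arrays and Cfc1 (0.95), Sez6l (0.94), 1700031M16Rik (0.93), Lactb2 (0.93), Phf10 (0.93) on carbon arrays. Of these, Stip1 encodes HOP, which joins HSP70 to HSP90.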

How the data were processed

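The authors deposited linear intensity values of 36227 probes, with 1 column for each of 121 CodeLink arrays, and the scanner software and normalization behind them are not given in the sources used here. The labels name ISOGEN and RNeasy extraction. All value columns were matched to samples by their labels. Before log2 a floor of 0.1269, taken from the lowest 5% of all positive values, replaced anything lower, and missing values stayed missing. A probe was tested if it had 1 gene symbol in the array annotation, values on at least 90% of arrays and a mean brighter than the dimmest 20% of probes, with the brightest probe standing for a gene (12962 genes). Annotation symbols can be old.

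A single linear model over the 54 groups of tumour, beam, dose and time was fitted with limma 3.58.1 in R 4.3.3 (moderated variances with a trend, 67 residual degrees of freedom), and p values were adjusted over all genes by Benjamini-Hochberg. The procedure was tested on simulated data. Python 3.11.15 with matplotlib 3.10.9 drew the plots. The number of arrays limits the precision. The members, lists and comparisons were chosen with earlier results of these data known, and the comparisons between pairs of tumours on late days, and of nrs1 with the other tumours, were added after the values were seen. All members are named, with up to 3 of the largest called rises and falls per pathway list in each mean comparison, Hspa1b, and the 5 genes most like Hspa1a and the member mean by Pearson r over group means with tumour means subtracted. The reported fit used no pairing of array numbers, and the replicate block setting paired them in every tumour and beam. Array numbers deviated together in mca4 carbon groups (15 of 15 pairs over 0.1, median r 0.19). No other set of 3 or more pairs had all of them over 0.1. In mmca carbon groups 12 of 15 were (median r 0.28), in scc7 gamma groups 2 of 3, and in the other gamma sets 2 of 21 to 8 of 28. Among the tumours with 1 pair of groups, that of the induced fibrosarcoma's carbon groups was over it (0.11). No arrays were identical.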

Additional observations from a re-analysis of the deposited data

Results flagged for a closer look

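The mean change of both fibrosarcomas was tested against that of both mammary carcinomas. It differed for 4 of 7 members, against 21.9% of all genes. Each type is a pair of tumours, so the SE measures spread between arrays and not between tumours of a type. On day 1 after gamma rays the change in fibrosarcomas minus that in mammary carcinomas was -0.55 ± 0.19 for Hsph1 (SE, limma, adjusted p = 0.0262), -0.42 ± 0.13 for Hsp90aa1 (adjusted p = 0.0128), -0.43 ± 0.11 for Dnajb1 (adjusted p = 0.00215) and -0.46 ± 0.15 for Hspd1 (adjusted p = 0.0175). Leaving out single arrays ended the Hsph1 call in 4 fits, the Hspd1 call in 3 and the Hsp90aa1 call in 1, as given in the report.

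Another 7 differences come from pairs of tumours that were picked after their values were seen, so they are given as values without a test. On days 8 to 25 the change in the induced fibrosarcoma minus that in nfsa was 1.41 ± 0.26 (SE) for Hsph1, 1.49 ± 0.15 for Dnajb1 and 1.79 ± 0.21 for Hspd1. These 3 of 7 members stand against 54.6% of all genes past the same threshold. In the same period the change in mmca minus that in mca4 was -1.73 ± 0.21 for Hspd1 and -0.81 ± 0.24 for Hspe1, 2 of 7 members against 49.1% of all genes. The Hspe1 difference was not past the threshold without mca4 unirradiated day 1 array 1 or mmca unirradiated day 9 array 1. Between day 5 and day 20 after carbon ions the change in nfsa minus that in nrs1 was 3.23 ± 0.63 for Hspa1a and 0.69 ± 0.19 for Dnajb1, 2 of 7 members against 17.1% of all genes.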

How the results depend on the processing

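Every call of a member or named gene held with the floor at the 10th percentile and without the mean-variance trend. Settings chosen after seeing the data moved the counts of called members most. With 1 value per group they were 1 at 6 h (3 in the report) and 2 on day 1 (5) after carbon ions, and 0 on day 1 (4) and 1 on days 8 to 25 (5) after gamma rays. Without the day 1 arrays with under 12% of probes missing, the count for fibrosarcomas minus mammary carcinomas was 2 (4), the same as with missing values at the floor and quantile normalization. For carbon day 20 minus day 5 (2) the count was 1 with missing values at the floor and quantile normalization, 1 with no filter on dim probes, 0 with quantile normalization and 1 with a replicate block. For day 41 minus day 25 in mca4 (1) it was 0 with quantile normalization, 0 with missing values at the floor too, and 0 with a replicate block. For unirradiated mmca (2) it was 1 with missing values at the floor and 1 with only arrays of the same beam, and for mmca minus mca4 after carbon ions (0) it was 1, Hspa1a, with only arrays of the same beam (adjusted p = 1.04e-10). The replicate block changed 11 of 307 results.

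Hspb1 reversed under both quantile settings, to 0.068 and 0.12 for 70 minus 30 Gy (-0.39), 0.075 and 0.11 at 70 Gy (-0.33) and 0.028 and 0.039 in the day 1 mean (-0.11), the last also 0.039 without the arrays under 12%. Hsp90aa1 in mmca against the other tumours at 30 Gy of gamma rays (-0.24) became 0.71 and 0.063, the late Dnajb1 mean (-0.046) became 0.0054 with missing values at the floor, and late Hspe1 in mmca (-0.54) became 0.26 against day 1 arrays. Hsp90aa1 had values on 80 of 81 gamma arrays, and the setting with missing values at the floor puts the remaining array there. The causes were not tested. Leaving out 1 array, Hsph1 in the gamma day 1 mean ranged from -0.15 to 0.036 and Dnajb1 on days 8 to 25 from -0.11 to 0.012.

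The counts of called members then ranged from 3 to 5 on carbon day 1, 1 to 3 at 6 h, 0 to 2 for day 20 minus day 5, 2 to 4 for fibrosarcomas minus mammary carcinomas, 3 to 5 on gamma days 8 to 25, 0 to 2 for mca4 day 41, 0 to 1 for unirradiated mmca, 2 to 4 for nfsa day 4 and 1 to 3 for scc7 and nrs1. A less bright probe could not be tried, since each member has 1 probe with a single symbol. Missing probes limit the gamma values more than the carbon values.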
